A study of Homo sapiens with 8 samples.

Results

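snoRNA host genes are genes whose introns carry small nucleolar RNAs (snoRNAs). A list of 32 of them was taken by name, of 22008 genes that had at least 1 read across an annotated intron in these libraries: 18 noncoding hosts (GAS5, SNHG1, SNHG3, SNHG4, SNHG5, SNHG6, SNHG7, SNHG8, SNHG10, SNHG12, SNHG14, SNHG15, SNHG16, SNHG17, SNHG19, SNHG20, ZFAS1 and EPB41L4A-AS1) and 14 protein-coding hosts (TAF1D, NOP56, NOP58, NCL, RACK1, EIF4A1, EIF4A2, EEF1B2, WDR43, GNL3, DKC1, PTCD3, CHD8 and TNPO2). The rule is by name and uses no measured value. Of the 32, 30 passed the filter on low counts and were tested for their level, 16 noncoding and 14 coding.

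snoRNAs guide the chemical modification of ribosomal and other RNAs: those of the box C/D class direct ribose methylation and those of the box H/ACA class direct pseudouridylation. In human cells most snoRNAs are not transcribed from genes of their own. They lie within introns of a longer RNA, are bound by their core proteins while the intron is being spliced out, and are trimmed from the excised intron. Splicing of the host and supply of the snoRNA are therefore tied. Many hosts begin with a run of pyrimidines, which places their translation under the control of mTORC1, and the spliced RNA of many noncoding hosts is known to be degraded by nonsense-mediated decay when it meets the ribosome.

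The cells were HEK293, a line derived from human embryonic kidney. In 4 libraries the cells had received 25 nM LMI070 (branaplam), a small molecule that strengthens the recognition of certain 5′ splice sites and was developed to promote an exon of SMN2. In the other 4 they had received DMSO, the solvent. The series concerns splicing that a drug can switch, as a control for gene therapies. Total RNA was depleted of ribosomal RNA and sequenced with strand information; how long the cells were treated is not given in the sources used here. Each of sequencing lanes 7 and 8 held 2 libraries of either group, LMI070 13 and 16 with DMSO 11 and 12 in lane 7, and LMI070 14 and 15 with DMSO 9 and 10 in lane 8. The libraries held 20369466 to 36131054 uniquely mapped reads across splice junctions, of which 99.1% lay on annotated introns in each library. In a scaling based on the genes that differed most between libraries, LMI070 16 and DMSO 12, both of lane 7, lay apart from the other 6 libraries. Markers fixed for HEK293 summed to 77.2 to 83.5 CPM in LMI070 and 75.9 to 83.4 CPM in DMSO, with 1 of 5 at 0 (SOX11, a gene without introns, which junction reads cannot measure). Fibroblast markers summed to 21.9 to 32.2 CPM in LMI070 and 19.1 to 23.6 CPM in DMSO, nearly all of it COL1A1, and none of the 5 was at 0 throughout. The summed markers of keratinising epithelium were at most 1.37 CPM, those of blood 0.930 CPM and those of hepatocytes 0.208 CPM in any library. The part of these differences in the results was not tested.

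The snoRNAs that the results below turn on are printed here from GENCODE 29 (GRCh38), 5′ to 3′. Of the box C/D snoRNAs named in member introns, 29 of 41 held the box C letters TGATGA within their first 20 bases and 38 held the box D letters CTGA within their last 15. Among all GENCODE snoRNAs of this class these were 192 and 257 of 278. Of 34 box H/ACA entries, 28 ended with ACA within their last 9 bases, against 132 of 147 in all. Capitals mark these boxes. The 3 copies in SNHG16 are shown because an alternative exon decides which of them share an intron; all 3 hold the stretch agttatccctgtctgaa of 17 bases, which begins at base 18 of SNORD1A and at base 21 of SNORD1B and SNORD1C.
SNORD1A (SNHG16, chr17:76561634-76561705, plus strand): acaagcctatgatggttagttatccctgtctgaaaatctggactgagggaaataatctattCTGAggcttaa
SNORD1B (SNHG16, chr17:76561109-76561192, plus strand): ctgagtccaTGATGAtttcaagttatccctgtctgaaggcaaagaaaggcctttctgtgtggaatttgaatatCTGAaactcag
SNORD1C (SNHG16, chr17:76558791-76558868, plus strand): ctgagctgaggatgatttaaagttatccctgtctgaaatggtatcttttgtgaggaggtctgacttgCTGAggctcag
SNORD50B (chr6:85677589-85677658, minus strand) is the GENCODE snoRNA of SNHG5, a host whose fold change differed between the lanes.
SNORD50B: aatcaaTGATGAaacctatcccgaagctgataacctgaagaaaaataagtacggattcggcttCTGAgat
SNORD96A (chr5:181241814-181241892, minus strand) lies in an intron of RACK1 that begins with GC in place of GT and had a count like those of its neighbours.
SNORD96A: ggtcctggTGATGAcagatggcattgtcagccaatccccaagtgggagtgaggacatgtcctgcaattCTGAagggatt
SNHG17, the host nearest to a change in level, carries copies of SNORA71. Compared base by base without alignment, SNORA71C and SNORA71D differ at 18 of 134 bases (86.6% identical). For SNORA71A such a count is not given, because its bases are shifted against theirs. A stretch of 20 bases that all 3 copies hold begins at base 80 of SNORA71A and at base 79 of SNORA71C and SNORA71D.
SNORA71A (chr20:38427309-38427442, minus strand): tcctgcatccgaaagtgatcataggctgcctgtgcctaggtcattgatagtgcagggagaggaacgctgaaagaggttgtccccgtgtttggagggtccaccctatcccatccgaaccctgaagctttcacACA
SNORA71C (chr20:38429670-38429803, minus strand): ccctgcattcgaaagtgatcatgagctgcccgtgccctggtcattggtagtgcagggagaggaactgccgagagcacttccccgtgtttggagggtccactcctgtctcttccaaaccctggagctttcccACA
SNORA71D (chr20:38433865-38433998, minus strand): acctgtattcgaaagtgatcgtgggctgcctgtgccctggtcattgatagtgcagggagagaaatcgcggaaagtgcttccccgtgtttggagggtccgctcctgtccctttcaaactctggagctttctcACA

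The position of the snoRNA in its intron was read as well, and it varied widely. Positions were taken from GENCODE entries, which list no snoRNA in GAS5. In the most read intron that contained it, a box C/D snoRNA ended a median of 106 bases before the 3′ splice site (quartiles 77 and 514, n = 41). Of the 41, 19 ended 50 to 100 bases before it. SNORD69 of GNL3 was the closest at 59 bases. SNORD12 of ZFAS1 was the farthest at 8272 bases, measured in an intron that skips an exon of 62 bases. That exon, which lies between SNORD12 and the 3′ splice site used, was included in 41.4% ± 0.640 in LMI070 and 39.2% ± 3.02 in DMSO. SNORD1C of SNHG16 was likewise measured, at 2419 bases, in an intron that skips an exon. The distances, and the count of 19, thus depend in part on the intron used. For box H/ACA snoRNAs the median was 235 bases (n = 32), and 11 lay 50 to 100 bases away. With RefSeq snoRNAs counted as well, introns of noncoding hosts with a snoRNA had a median length of 578 bases (n = 79). Those without had 365 bases (n = 34). In coding hosts the medians were 537 (n = 64) and 566 bases (n = 223). These are descriptions of the annotation, with no test.

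RefSeq entries for the start of transcription (GRCh38.p14) were found for 29 of the members. At the annotated start, or up to 5 bases either side of it on the transcribed strand, 13 of the 29 had a C followed by 4 bases that are each C or T: 9 of 16 noncoding and 4 of 13 coding hosts. The same letters stood at 25.2% of all genes in the table and at 29.8% of those tested here. None of GAS5, SNHG3 and SNHG14 had such a run. Their RefSeq starts lie more than 5 bases upstream of the GENCODE genes used here. The windows of SNHG5, ZFAS1, RACK1 and EEF1B2 run from 15 bases before the annotated start to 24 after it, with the pyrimidine run in capitals. They are shown as examples of short and long runs, both of which occurred in either class: the runs counted were 5 to 13 bases long in noncoding hosts (longest in SNHG4) and 6 to 16 bases in coding hosts (shortest in EIF4A2).
SNHG5 (chr6:85678709-85678748, minus strand): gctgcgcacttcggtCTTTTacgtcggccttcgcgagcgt
ZFAS1 (chr20:49278627-49278666, plus strand): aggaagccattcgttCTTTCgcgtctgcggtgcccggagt
RACK1 (chr5:181243882-181243921, minus strand): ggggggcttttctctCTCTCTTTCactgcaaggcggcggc
EEF1B2 (chr2:206159880-206159919, plus strand): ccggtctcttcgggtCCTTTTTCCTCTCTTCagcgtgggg

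Whether treatment changed the level of a host was asked from its spliced reads, the uniquely mapped reads on annotated introns of that gene alone, given as CPM, the count scaled to library size with TMM factors. A gene with more introns collects more of them, so levels of different genes were set side by side by their most read intron. RACK1, the ribosomal scaffold protein, had 429.9 ± 11.6 CPM on its most read intron in LMI070 and 435 ± 6.36 CPM in DMSO (SD, n = 4 each, as for all means below). EIF4A1 had 373 ± 35.6 and 379.5 ± 17.4 CPM, on an intron that it shares with other annotated genes. NCL, the nucleolar protein nucleolin, had 143 ± 6.57 and 138 ± 10.8 CPM. EEF1B2, an exchange factor of translation elongation, had 133 ± 9.25 and 134 ± 4.85 CPM. In DMSO NCL and EEF1B2 differed by less than the SD of NCL. Among noncoding hosts the order was SNHG16 with 76.6 ± 4.52 CPM in LMI070 and 82.0 ± 3.04 CPM in DMSO, then SNHG5 with 46.0 ± 3.13 and 48.9 ± 2.02 CPM, and then GAS5 with 22.5 ± 1.92 and 24.2 ± 0.897 CPM. Far below these, SNHG10, which carries a guide RNA of Cajal bodies, had 2.42 ± 0.319 and 2.21 ± 0.0816 CPM.

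**Figure D1:**
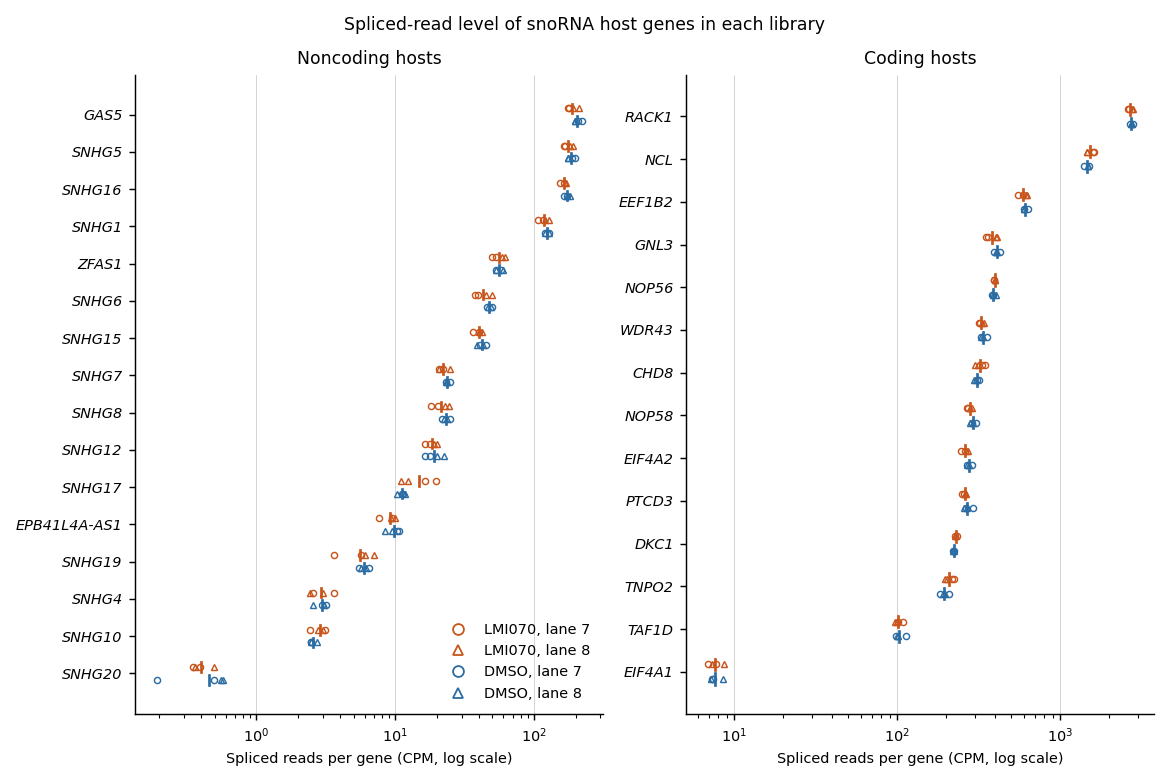
Spliced reads per gene (CPM, log scale) for the noncoding hosts (left) and coding hosts (right), LMI070 above DMSO in each row, 1 point per library (circles lane 7, triangles lane 8) and a bar at the group mean of 4. In SNHG17 both lane 7 libraries of LMI070 (16.4 and 19.8 CPM) stand to the right of all DMSO libraries (10.2 to 11.8 CPM), as they also do, by less, in NCL, DKC1, CHD8 and TNPO2.

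No snoRNA host gene changed its level in LMI070 at an adjusted p under 0.05 in edgeR's quasi-likelihood test with lane in the model. The count was 0 of 16 noncoding and 0 of 14 coding hosts, where 0.133% of all genes tested were called (18 of 13487). DESeq2 also called 0, with no adjusted p for 5 noncoding and 1 coding host. At an unadjusted p under 0.05 there were 3 noncoding hosts (SNHG17 higher, GAS5 and SNHG6 lower) and 2 coding hosts (TNPO2 higher, GNL3 lower), while 10.3% of all genes passed that mark. The median log2 fold change was -0.08 over the noncoding hosts and -0.02 over the coding hosts, against 0.00 over all genes, and 14 of the 16 noncoding hosts had a value below 0, against 48.6% of all genes. Summed over members, the noncoding hosts had 881 ± 54.4 CPM in LMI070 and 929 ± 24.2 CPM in DMSO, and the coding hosts 7605 ± 84.4 and 7620 ± 80.9 CPM. In RNA from whole cultures, fewer cells that use a gene and less RNA per cell cannot be told apart.

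The noncoding hosts with the most spliced reads were close between the groups. GAS5, which carries box C/D snoRNAs in nearly every intron and is known to accumulate in growth-arrested cells, had 178, 209, 192 and 175 CPM in LMI070 13 to 16, against 195, 196, 208 and 221 CPM in DMSO 9 to 12. The LMI070 libraries of lane 7 were the lowest of the 8, and the groups overlapped (log2 fold change -0.12 ± 0.05 SE, edgeR adjusted p = 0.465; -0.05 without DMSO 12 and LMI070 16). SNHG5, host of the SNORD50 pair, had 164, 190, 180 and 168 CPM in LMI070, against 176, 175, 188 and 196 CPM in DMSO. SNHG5 showed the same order, with both lane 7 libraries of LMI070 lowest (-0.07 ± 0.05, adjusted p = 0.658). SNHG16, host of the SNORD1 copies, had 154, 166, 170 and 164 CPM in LMI070, against 172, 180, 163 and 172 CPM in DMSO (-0.07 ± 0.04, adjusted p = 0.548). SNHG1, whose introns hold a row of SNORD genes, had 107, 128, 120 and 115 CPM in LMI070, against 129, 120, 120 and 129 CPM in DMSO (-0.08 ± 0.05, adjusted p = 0.582). ZFAS1, host of the SNORD12 copies, had 53.2, 61.8, 58.8 and 49.7 CPM in LMI070, against 59.9, 53.2, 53.3 and 57.2 CPM in DMSO (-0.00 ± 0.06, adjusted p = 0.994). In each of these genes the groups overlapped.

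SNHG17 was the member nearest to a call. It had 16.4, 10.95, 12.4 and 19.8 CPM in LMI070, against 10.2, 11.8, 11.2 and 11.3 CPM in DMSO. Its 2 LMI070 libraries of lane 7 were above every DMSO library while of the 2 in lane 8 LMI070 14 was within the DMSO range and LMI070 15 just above it. The log2 fold change was 0.39 ± 0.11 SE with an adjusted p of 0.259 in edgeR and 0.166 in DESeq2, and 0.25 (adjusted p = 0.885) without DMSO 12 and LMI070 16. Of the other noncoding hosts, SNHG6 had 39.2, 49.8, 44.9 and 37.2 CPM in LMI070, against 48.8, 46.2, 45.4 and 49.4 CPM in DMSO (-0.15 ± 0.07, adjusted p = 0.450). SNHG7, SNHG8, SNHG12, SNHG15, SNHG19, SNHG4, SNHG10 and EPB41L4A-AS1 had log2 fold changes between -0.11 (SNHG8) and 0.15 (SNHG10), all with adjusted p of 0.634 or more. SNHG20, with 0.399 ± 0.0644 CPM in LMI070 and 0.454 ± 0.178 CPM in DMSO on introns of its own, had too few reads to place (-0.18 ± 0.35, adjusted p = 0.895).

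The annotation limits the rest of the noncoding hosts. Both introns of SNHG3, host of SNORA73A and SNORA73B, also belong to RCC1, so that no read could be given to SNHG3 alone. With reads of shared introns counted in each gene, SNHG3 had 18.8 ± 3.22 CPM in LMI070 and 18.3 ± 2.82 CPM in DMSO (log2 fold change 0.02, adjusted p = 0.949). Counted in the same way, SNHG4, which shares introns with MATR3, had 19.5 ± 1.84 and 19.4 ± 1.42 CPM, and SNHG20, which shares introns with SEC14L1, had 5.44 ± 0.551 and 5.89 ± 0.749 CPM. SNHG14, the long host of the SNORD115 and SNORD116 arrays in neurons, had a single read in all 8 libraries, in DMSO 12.

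Among the coding hosts, RACK1 had 2629, 2806, 2769 and 2593 CPM in LMI070, against 2731, 2756, 2784 and 2696 CPM in DMSO (log2 fold change -0.02 ± 0.03, edgeR adjusted p = 0.831). NCL had 1616, 1461, 1469.9 and 1584 CPM in LMI070, against 1475, 1483, 1394 and 1497 CPM in DMSO. Both LMI070 libraries of lane 7 were above all DMSO libraries and both of lane 8 were within their range (0.07 ± 0.04, adjusted p = 0.554). EEF1B2 had 596, 616, 624 and 549 CPM in LMI070, against 601, 599.7, 597 and 635 CPM in DMSO (-0.03 ± 0.04, adjusted p = 0.830). GNL3, the nucleolar GTPase nucleostemin, had 353, 406, 412 and 360 CPM in LMI070, against 409, 405, 394 and 429.9 CPM in DMSO, with the lane 7 libraries of LMI070 below the rest (-0.10 ± 0.05, adjusted p = 0.461). NOP56, a core protein of box C/D particles, had 393, 401, 397 and 394 CPM in LMI070, against 402, 388, 379.9 and 387 CPM in DMSO (0.03 ± 0.04, adjusted p = 0.831).

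DKC1, dyskerin, the pseudouridine synthase of box H/ACA particles, was the single member whose groups did not overlap. It had 228, 227, 230.3 and 235 CPM in LMI070, against 222, 219.8, 222 and 224 CPM in DMSO. The difference was small (log2 fold change 0.05 ± 0.04, adjusted p = 0.638), and groups did not overlap in 4.13% of all genes tested. NOP58, the partner of NOP56 in box C/D particles, had 278 ± 8.84 CPM in LMI070 and 291 ± 10.3 CPM in DMSO. The remaining coding hosts, the RNA polymerase I factor subunit TAF1D, the helicase EIF4A2 of translation initiation, the ribosome biogenesis factor WDR43, the mitochondrial translation protein PTCD3, the chromatin remodeller CHD8 and the importin TNPO2, had log2 fold changes between -0.07 (EIF4A2) and 0.10 (TNPO2). EIF4A1, a helicase of the same kind as EIF4A2, has nearly all its reads on introns shared with the readthrough gene SENP3-EIF4A1. With shared introns counted it had 3046 ± 203 CPM in LMI070 and 3117 ± 95.9 CPM in DMSO (-0.04, adjusted p = 0.699).

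The lanes were then compared, since each held both treatments. Whether the effect of LMI070 differed between lanes was tested as an interaction, given as the log2 fold change in lane 8 minus that in lane 7. It was called for 2 of 16 noncoding hosts and 0 of 14 coding hosts, where 2.85% of all genes were called (385 of 13487). At an unadjusted p under 0.05 there were 5 noncoding and 3 coding hosts, against 14.8% of all genes. GAS5 had a mean of 177 CPM in LMI070 and 214 CPM in DMSO in lane 7, and 200.4 CPM in LMI070 and 195.5 CPM in DMSO in lane 8 (difference of log2 fold changes 0.31 ± 0.07 SE, edgeR adjusted p = 0.0155). SNHG5 had 166 CPM in LMI070 and 192 CPM in DMSO in lane 7, and 185 and 176 CPM in lane 8 (0.29 ± 0.07, adjusted p = 0.0238). DESeq2 called both and GNL3 in addition (0.22, adjusted p = 0.0442). Without DMSO 12 and LMI070 16 a single library of each group was left in lane 7. The values were then 0.26 for GAS5 and 0.27 for SNHG5. Without LMI070 14 they were 0.25 for either gene, with adjusted p of 0.226 for GAS5 and 0.235 for SNHG5. The GAS5 call was also lost without DMSO 9, DMSO 10, LMI070 13 or LMI070 16, and the SNHG5 call without any of these or LMI070 15. What sets the lanes apart, beyond the libraries they hold, is not given, and its part in these differences was not tested.

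**Figure D2:**
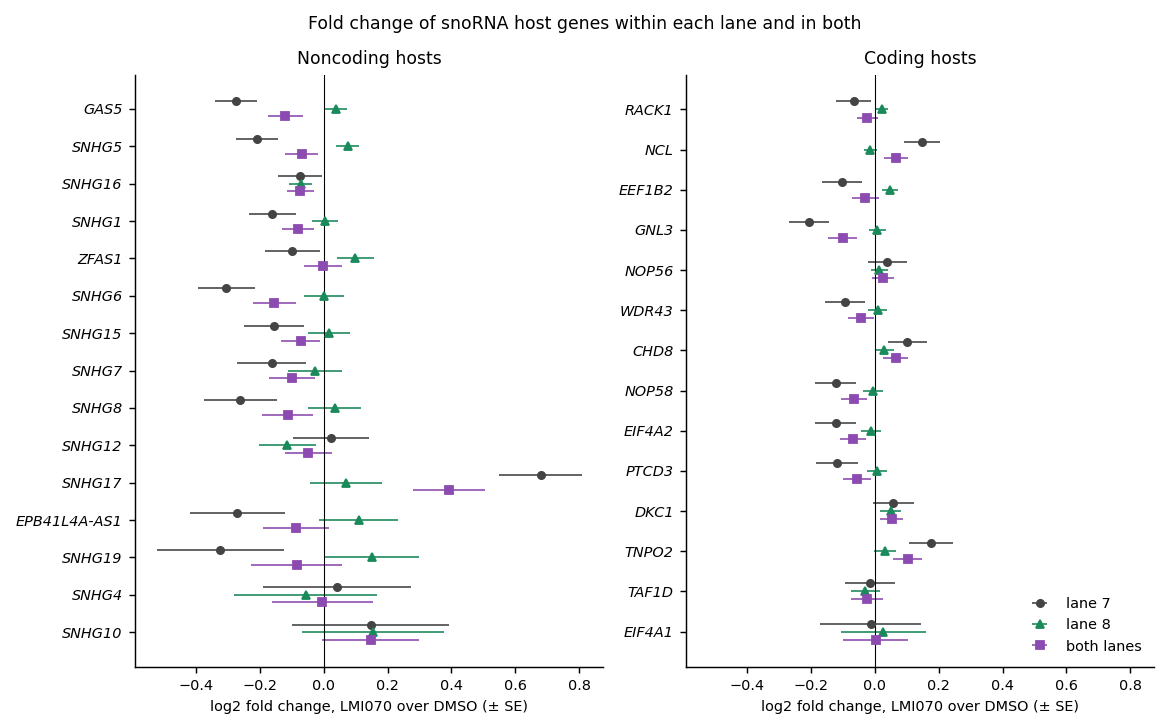
log2 fold change of LMI070 over DMSO with its standard error for each host tested in both lanes (SNHG20 was not), within lane 7 (circles), within lane 8 (triangles) and in both (squares), noncoding hosts left and coding hosts right. GAS5 was at -0.27 in lane 7 and 0.04 in lane 8, and SNHG17 at 0.68 in lane 7 and 0.07 in lane 8.

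Within lane 7 alone GAS5 was lower (-0.27 ± 0.07, adjusted p = 0.0130) and SNHG17 higher (0.68 ± 0.13, adjusted p = 0.00165), the 2 called of 15 noncoding hosts tested there; no coding host was called, and 4.12% of all genes were. Within lane 8 alone no member was called, where 0.375% of all genes were. In lane 7 the fold change was below 0 in 11 of 15 noncoding and 9 of 14 coding hosts, against 49.2% of all genes. In lane 8 it was below 0 in 5 of 16 noncoding and 4 of 14 coding hosts, against 49.5% of all genes.

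Other genes of the pathway were read from lists. Of 34 further snoRNA host genes 33 were tested and 0 changed (median log2 fold change -0.03, with 25 of the 33 below 0). They showed a lane difference of the same direction as most noncoding hosts: 28 of the 33 had an interaction above 0. Their median log2 fold change was -0.09 in lane 7 and 0.01 in lane 8. The interaction was above 0 in 12 of 16 noncoding hosts, 8 of 14 coding hosts and 6685 of the 13487 genes tested. None of 16 factors of nonsense-mediated decay, 18 proteins that form or assemble snoRNA particles (among them the members NOP56, NOP58 and DKC1), and 13 genes of mTORC1 and its control of pyrimidine-start RNAs changed, with medians of 0.01, 0.02 and 0.02. The interaction with lane was called below 0 for 2 genes of the snoRNA particle list and 3 of the mTORC1 list, named here after their values were seen. They were fibrillarin FBL, the methyltransferase of box C/D particles (-0.47, adjusted p = 7.1e-05), NOLC1, a chaperone of these particles (-0.30, adjusted p = 0.0186), LARP1, which binds the pyrimidine start (-0.37, adjusted p = 0.0011), and the mTORC1 subunits RPTOR (-0.31, adjusted p = 0.0257) and MLST8 (-0.35, adjusted p = 0.0369). GAS5 and SNHG5 had the opposite sign. Over all genes, 337 of the 385 interaction calls were below 0.

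Spliced reads of single introns were tested next, each intron against its own count in the other group. These counts also follow the level of the host. Of 84 noncoding and 245 coding introns that passed the filter, 0 were called, where 0.244% of all introns were. At an unadjusted p under 0.05 there were 10 and 22, against 8.18% of all introns, and DESeq2 called 0. The smallest adjusted p was that of the NOP58 intron chr2:202282473-202284344, with 16.1, 18.1, 17.5 and 16.4 CPM in LMI070, against 20.4, 19.7, 19.7 and 22.4 CPM in DMSO (log2 fold change -0.27 ± 0.07, adjusted p = 0.0908). Its groups did not overlap, as in 3.36% of all introns and in 3 noncoding and 7 coding introns of the members. The GNL3 intron that carries SNORD19C, chr3:52691072-52691541, had 29.3 ± 1.89 CPM in LMI070 and 33.6 ± 1.82 CPM in DMSO (adjusted p = 0.269), and the TNPO2 intron chr19:12703802-12705239 had 9.48 ± 1.70 and 7.96 ± 0.405 CPM (adjusted p = 0.395). Among noncoding hosts, the most upstream tested intron of SNHG17, chr20:38434627-38435026, had 2.22, 1.19, 1.66 and 2.10 CPM in LMI070, against 1.01, 1.14, 1.12 and 1.05 CPM in DMSO (0.72 ± 0.20, adjusted p = 0.137). The GAS5 intron that carries SNORD47, chr1:173864305-173864483, had 13.6 ± 1.62 and 16.03 ± 1.73 CPM (adjusted p = 0.3535), and the SNHG17 intron that carries SNORA71D had 2.40 ± 0.428 and 1.80 ± 0.128 CPM (adjusted p = 0.459).

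**Figure D3:**
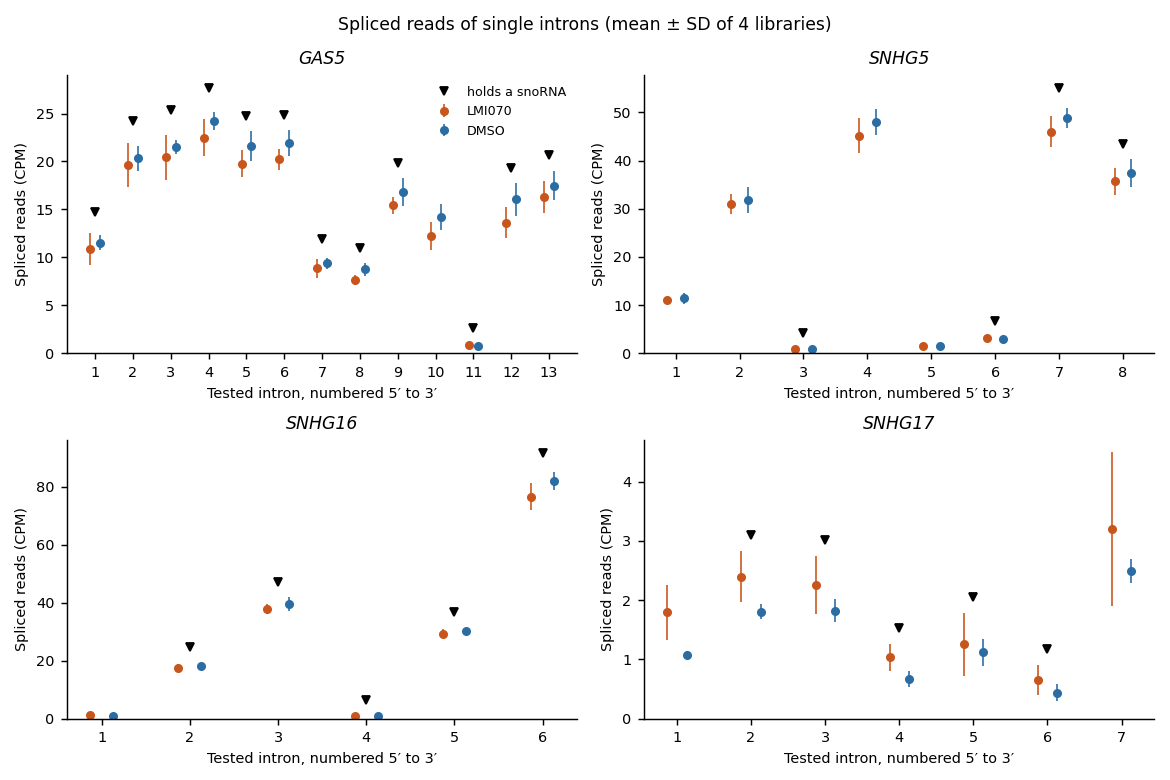
Spliced reads (CPM, mean ± SD of 4 libraries) of each tested intron of GAS5, SNHG5, SNHG16 and SNHG17, numbered 5′ to 3′, LMI070 left of DMSO, with a triangle over introns that hold a snoRNA. In GAS5 the intron of SNORD77 is the highest at 22.5 CPM in LMI070 and 24.2 CPM in DMSO, and no intron of the 4 genes was called.

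GAS5 shows how a host is laid out. GENCODE 29 lists no snoRNA inside GAS5, so the snoRNA positions of RefSeq were used for it. All but 1 of its tested introns then held a snoRNA, SNORD74 to SNORD81 with SNORD44 and SNORD47. The SNORD79 intron begins at either of 2 splice sites of the upstream exon. The shorter form had 7.60 ± 0.510 CPM in LMI070 and 8.75 ± 0.697 CPM in DMSO, and the longer 8.87 ± 1.01 and 9.39 ± 0.550 CPM. The shorter made up 45.8% ± 4.16 and 47.7% ± 2.68 of reads that use either of its splice sites (edgeR adjusted p = 1). In SNHG1 an exon of 51 bases (chr11:62854888-62854938) between SNORD27 and SNORD28 was included in 69.8% ± 1.61 in LMI070 and 69.2% ± 3.71 in DMSO; skipping it leaves both snoRNAs in a single intron. In SNHG16 an exon of 99 bases (chr17:76558945-76559043) between SNORD1C and SNORD1B was included in 38.2% ± 1.65 in LMI070 and 38.0% ± 0.950 in DMSO. The intron that skips it and holds both snoRNAs printed above had 37.9 ± 1.65 and 39.6 ± 2.51 CPM, and that of SNORD1A further down 76.6 ± 4.52 and 82.0 ± 3.04 CPM.

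No alternative splicing event of a member was called. For cassette exons the count was 0 of 65 in noncoding and 0 of 118 in coding hosts, against 0.134% of all exons. Overlapping forms of an exon are counted apart, so these are forms and not separate exons. Some have few reads on 1 of their junctions, such as a form in SNHG6 with 3552 and 2 reads. A call needed both an adjusted p under 0.05 and a shift of 10 percentage points, and without that shift 0.326% of all exons passed. At an unadjusted p under 0.05 there were 3 and 5, against 5.06% of all, and DESeq2 called 0. For single junctions, measured as the share of reads at their splice sites, 0 of 109 and 0 of 285 were called, against 0.0664% of all (0.144% without the minimum), with 3 and 7 at an unadjusted p under 0.05, against 3.1% of all. No exon or junction of a member moved by 10 points. The largest difference in an exon was 9.16 points, in SNHG17, and in a junction 7.26 points, in SNHG4. That exon was included in 38.0% ± 13.04 in LMI070 and 28.9% ± 4.11 in DMSO, and the junction was used in 47.2% ± 6.66 and 54.4% ± 5.94, so that the SDs were of the size of the differences.

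**Figure D4:**
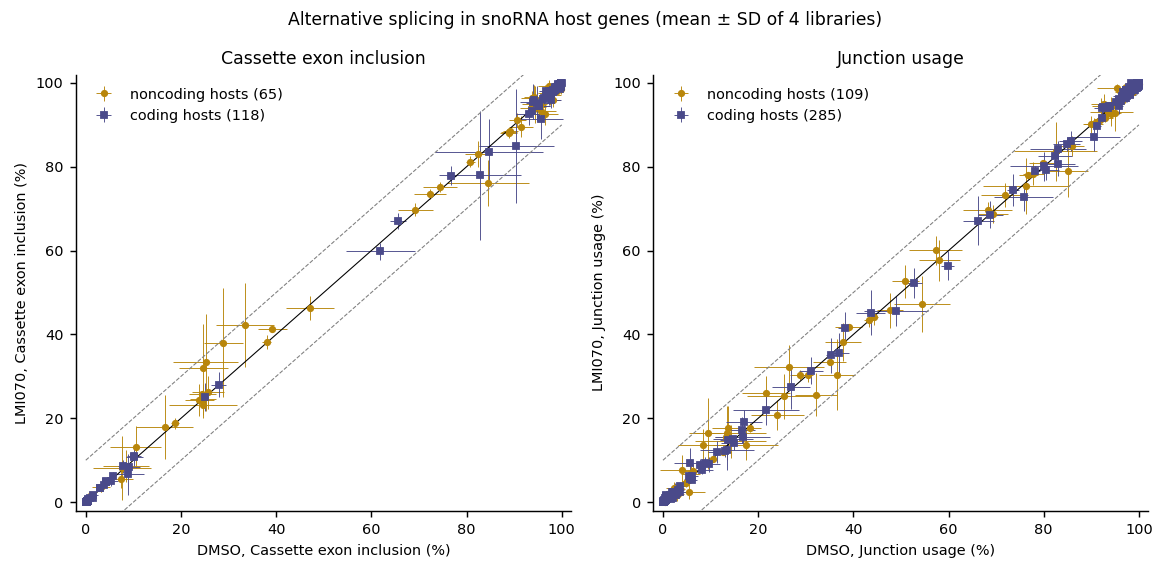
Inclusion of cassette exons (left) and usage of single junctions (right) in percent, LMI070 on the vertical and DMSO on the horizontal axis, mean ± SD of 4 libraries, with dashed lines at 10 points either side of equality. All 65 and 118 exon forms and all 109 and 285 junctions lie between the dashed lines.

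The members have several exons that are skipped in a sizeable share of transcripts in both groups. In EIF4A2 an exon of 107 bases (chr3:186788310-186788416) was included in 25.1% ± 3.32 in LMI070 and 25.0% ± 0.706 in DMSO, and an exon of 140 bases beside SNORD2 in 77.9% ± 2.30 and 76.8% ± 1.01. In ZFAS1 an exon of 62 bases was included in 41.4% ± 0.640 and 39.2% ± 3.02, and in SNHG6 an exon of 112 bases in 81.2% ± 1.24 and 80.8% ± 0.964. The NOP56 junction from the more upstream of 2 5′ splice sites holds SNORD86 in its intron. It made up 41.5% ± 3.85 and 38.2% ± 1.41 of reads that use either of its splice sites (edgeR adjusted p = 0.977). The events with the smallest p were shifts of 3 points or less. By that order they were, in noncoding hosts, 2 overlapping forms of an SNHG1 exon (98.7% ± 1.33 in LMI070 and 99.9% ± 0.287 in DMSO for the shorter, adjusted p = 0.866) and an SNHG15 exon (96.3% ± 1.64 and 93.7% ± 2.30, adjusted p = 0.915). In coding hosts they were exons of RACK1 (0.0978% ± 0.0349 and 0.162% ± 0.0128), NOP58 (99.6% ± 0.194 and 99.9% ± 0.104) and WDR43 (98.5% ± 0.503 and 99.6% ± 0.506). Of junctions they were those of SNHG15 (1.87% ± 0.841 and 3.25% ± 1.23), SNHG16 (1.86% ± 0.562 and 1.35% ± 0.381) and SNHG1 (99.0% ± 0.846 and 97.4% ± 0.740), and in coding hosts of TNPO2 (99.9% ± 0.218 and 98.3% ± 0.752, adjusted p = 0.686), RACK1 (99.6% ± 0.113 and 99.4% ± 0.0578) and DKC1 (99.3% ± 0.0933 and 99.9% ± 0.139).

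LMI070 is known to favour exons that end in GA, above all in AGA, so the exon ends of the members were read from GENCODE 29 transcripts. Of 400 member introns with at least 20 reads, 0 followed an exon that ended in AGA, against 0.763% of all introns tested (937 of 122751), and 5 followed an exon that ended in GA, against 1.61%. Capitals mark the last 3 bases of these exons, 20 bases of each are shown, and the ZFAS1 exon precedes 2 introns.
ZFAS1 (exon before chr20:49279209-49280484 and chr20:49279209-49289044, plus strand): aaccttcgatctcctgaCGA
EIF4A2 (exon before chr3:186788417-186789124, plus strand): actgtttgaataaagagCGA
CHD8 (exon before chr14:21402137-21402335, minus strand): gggatggcaacattactGGA
TNPO2 (exon before chr19:12710774-12711295, minus strand): tctgtccgactggaattTGA
Usage is the share of a junction among reads that use either of its splice sites. The ZFAS1 junction to the nearer exon had 80.9% ± 0.575 in LMI070 and 79.8% ± 3.03 in DMSO. That to the farther exon had 12.1% ± 0.779 and 12.5% ± 1.87. The EIF4A2 junction had 9.39% ± 1.37 and 8.81% ± 0.333, and the TNPO2 junction 98.9% ± 0.725 and 99.1% ± 0.447. For the CHD8 intron the log2 fold change was 0.02 ± 0.09. None was called (adjusted p of 1 for usage, and 0.607 or more for the level of the intron).

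Reads on junctions outside the annotation were few. The members held 700 such junctions with 4035 reads, of which 315 had a single read and 33 at least 20. They made up 0.721% ± 0.0295 of spliced reads in LMI070 and 0.694% ± 0.0413 in DMSO for noncoding hosts, and 0.199% ± 0.0061 and 0.191% ± 0.00667 for coding hosts. Junctions seen in LMI070 alone numbered 227, none with more than 5 reads, and those seen in DMSO alone 179, none with more than 6 reads. The unannotated share could be tested in 9 noncoding and 13 coding hosts, and 0 were called, against 0.267% of genes; 0 and 2 passed an unadjusted p of 0.05, against 5.63%, and DESeq2 called 0. The 2 were DKC1 (0.253% ± 0.0563 in LMI070 and 0.153% ± 0.0875 in DMSO, adjusted p = 0.838) and EIF4A2 (0.439% ± 0.0752 and 0.321% ± 0.104, adjusted p = 0.862). The most read such junction lay in SNHG16, used a 5′ splice site just inside the SNORD1A intron, and had 147 reads in LMI070 and 139 in DMSO.

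The share of a host's spliced reads that fell on introns with a snoRNA was measured last, since it relates the splicing of these introns to that of the others. It was tested in 11 noncoding and 14 coding hosts, and 0 were called by edgeR or by DESeq2, among 227 genes of which 0% were called. At an unadjusted p under 0.05 there was 1, SNHG16, with 99.3% ± 0.199 in LMI070 and 99.5% ± 0.147 in DMSO (edgeR adjusted p = 0.962), against 3.52% of all. By GENCODE positions, shares ran from 3.32% ± 0.579 and 3.38% ± 0.258 in TNPO2 to the nearly complete share in SNHG16. In TNPO2 GENCODE places SNORD41 in a single intron among many. TAF1D had 66.1% ± 2.78 and 67.5% ± 1.59, with its snoRNAs gathered in the introns of its 3′ part. SNHG12 had 88.1% ± 1.94 and 85.9% ± 1.26, and NOP56 had 51.5% ± 0.797 and 50.5% ± 0.668 (edgeR adjusted p = 0.962 for both). With RefSeq positions added, GAS5 had 93.4% ± 0.512 and 93.0% ± 0.252 (edgeR adjusted p = 0.797). The GC-AG intron of RACK1 that holds SNORD96A had 421 ± 13.9 CPM in LMI070 and 422 ± 14.9 CPM in DMSO, beside 409 ± 29.7 and 406 ± 18.5 CPM for the SNORD95 intron next to it.

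**Figure D5:**
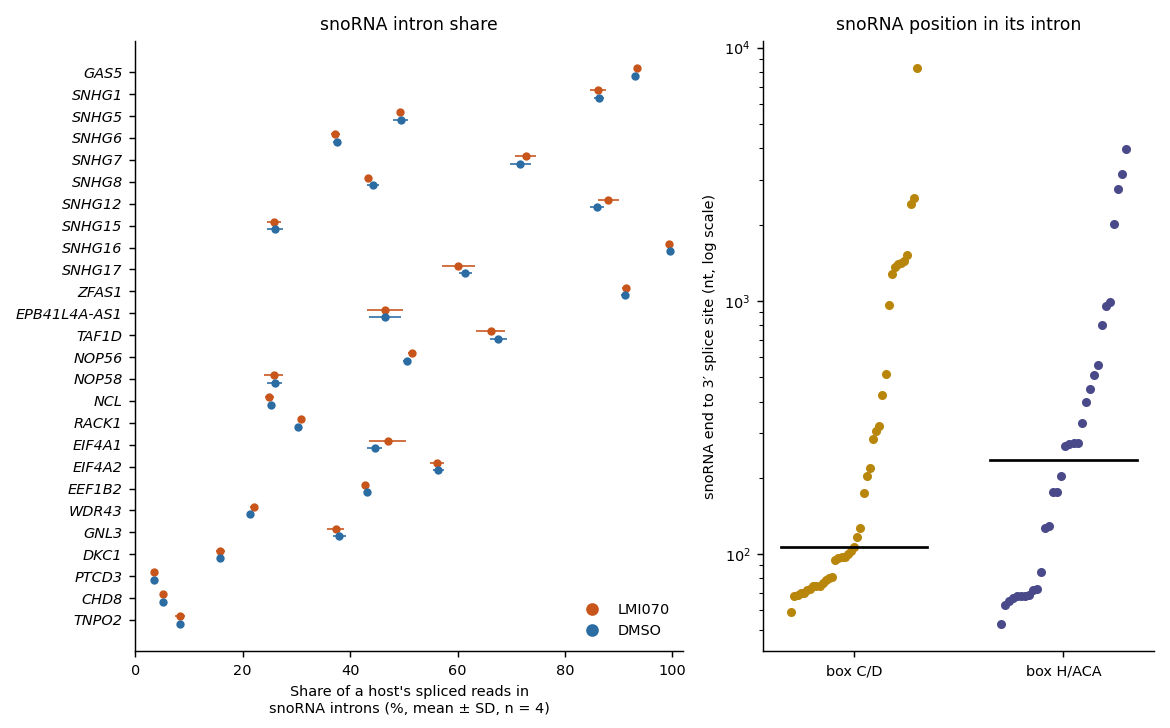
Left, share of a host's spliced reads on introns that hold a snoRNA (percent, mean ± SD, n = 4), LMI070 above DMSO, from GENCODE and RefSeq positions. GAS5 is at 93.4% in LMI070 and 93.0% in DMSO, and none was called. Right, distance from the end of a GENCODE snoRNA to the 3′ splice site of its most read intron (nt, log scale). The medians are 106 for box C/D and 235 for box H/ACA.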

How the data were processed

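RNA of 8 HEK293 libraries was measured. The submitters' processing notes name STAR 2.6.0c and GRCh38; its parameters are not given in the sources used here. The deposited values are raw counts of reads across each splice junction, 1 table per library, with no normalization by the authors. Uniquely mapped counts were used here. Junctions were matched to GENCODE 29 introns, and a gene's level was the sum over introns that belong to it alone. No genome sequence was used. Fits used the quasi-likelihood test of edgeR 4.0.16 (R 4.3.3) with lane as a term, on all features of the table, with Benjamini-Hochberg adjustment over all of them; a standard error follows from the F statistic. Genes and introns passed filterByExpr. Usage, inclusion and shares were fitted as paired counts with a coefficient per library. Junctions needed 20 reads over all libraries and 10 at their sites in each; exons of 3 to 500 nt needed 10 inclusion and 10 skipping reads and 10 in each library. DESeq2 1.42.0 was an alternative. The fits were tested on simulated data. All members are named; values per library are given for the 5 with most CPM in each class and for members past a test, and for SNHG17, SNHG6 and DKC1, chosen after their values were seen. Of introns, exons and junctions the 3 with the smallest p per class are given, and other events were chosen after their values were seen. The members, lists and tests were chosen with earlier results of these data known. Nothing in the labels says whether libraries came from separate cultures, so p-values measure the spread between these libraries. A result of 1 further gene is not reported here.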

Additional observations from a re-analysis of the deposited data

Results flagged for a closer look

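In 4 of 60 groups of 4 libraries a single library lay far from the other 3; chance flags about 1 group in 20. SNHG7 had 24.82 CPM in DMSO 11, against 23.13 to 23.39 CPM in the other DMSO libraries. SNHG10 had 2.73 CPM in DMSO 9, against 2.484 to 2.486 CPM. EIF4A1, in reads of introns it does not share, had 8.572 CPM in DMSO 9, against 7.257 to 7.403 CPM. EEF1B2 had 634.8 CPM in DMSO 12, against 597.4 to 601.4 CPM.

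The effect of LMI070 differed between the lanes for 2 members by a test of the difference itself. The log2 fold change in lane 8 minus that in lane 7 was 0.3138 for GAS5 and 0.2858 for SNHG5. For both genes the LMI070 libraries of lane 7 were lowest. With 2 libraries per group in a lane, the part of lane and that of the single libraries was not tested.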

How the results depend on the processing

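The counts of called members at the gene level stayed at 0 in both classes in each alternative run, except for the noncoding hosts: 1 (SNHG17) with no low-count filter and 2 (GAS5, SNHG17) in lane 7 alone. At the intron level the count was 1 in noncoding hosts (SNHG17) and 1 in coding hosts (TNPO2) in lane 7 alone, and with 1 replicate left out it ranged from 0 to 1 in noncoding hosts (GAS5, without LMI070 14). The interaction with lane, 2 noncoding and 0 coding hosts as reported, ranged from 0 to 4 and from 0 to 7 with 1 replicate left out. Both highest counts came without DMSO 11; 0 noncoding hosts were called without DMSO 9, DMSO 10, LMI070 14 or LMI070 16, and 1 without LMI070 13 or LMI070 15. With no low-count filter the noncoding count was 3, with SNHG17 added (-0.60, adjusted p = 0.0298 in edgeR), whose sign is opposite to that of GAS5 and SNHG5; SNHG17 was also called without DMSO 11 and without LMI070 13. For coding hosts it was 1 with DESeq2 and 1 with no low-count filter (GNL3 in both). Without DMSO 12 and LMI070 16 together, an alternative added after seeing the data, lane 7 held a single library of each group. Interaction calls of that fit are therefore not counted here. Counts for junction usage, exons, unannotated shares and snoRNA intron shares stayed at 0 in each alternative run. The summed level of noncoding hosts, LMI070 minus DMSO in CPM, ranged from -69.1 to -32.1 with 1 replicate left out. The summed level of coding hosts, LMI070 minus DMSO in CPM, ranged from -41.6 to 22.9. Without DMSO 12 and LMI070 16 together it was -21.7 and 54.8 CPM, against -47.7 and -14.7 CPM as reported. Over all genes, the 18 gene-level calls became 36 with DESeq2, 265 with no low-count filter, 557 in lane 7 and 51 in lane 8. The 300 intron calls became 123 with DESeq2, 521 with no low-count filter, 1259 in lane 7, 125 in lane 8, 147 with no lane term and 168 without DMSO 12 and LMI070 16. The 385 interaction calls ranged from 155 to 1597 with 1 replicate left out, where the lane of that replicate kept a single library of its group. Of 509 single gene-level values over 30 members 46 changed sign, none of them called; of 360 interaction values 28 changed sign and 0 of those called did. Where a call was gained or lost, the cause was not tested. No paired analysis was possible because the DMSO libraries are numbered 9 to 12 and the LMI070 libraries 13 to 16, so that no number is shared. Junction reads do not show intron retention, snoRNA levels or reads within exons, and introns with few reads could not be tested.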
